A study of Mus musculus with 198 samples.

Results

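The hippocampus libraries of this bisulfite series come from 6 mice, all aged 8 weeks and of strain C57BL/6J, and are 6 of the 198 samples. They were chosen by their tissue and age labels alone, and no measured value entered the choice. The label "Heterozygous KO" (hKO here), which the series title ties to DNMT3A haploinsufficiency, that is loss of 1 functional copy of the gene, covers 2 mice: male 046-2 and female 047-1. Wild-type (WT) mice numbered 4: males 046-1 and 602-2 and females 047-2 and 306-1. Each mouse gave 1 hippocampus library, so n counts animals, and the labels name no treatment. The labels name neither the allele nor its design, and describe tissue taken from littermates without saying which mice were littermates.

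DNMT3A is a DNA methyltransferase that places methyl groups on previously unmethylated cytosines. In most cells methylated cytosines are followed by guanine (CG) and are copied at cell division by another enzyme, DNMT1. Neurons also build up methylation at cytosines followed by another base during the weeks after birth, mostly at CA and to a lesser extent at CT, and this non-CG methylation depends on DNMT3A. The hippocampus, a structure of memory formation, mixes densely packed neurons with glia.

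For each library the table gives the share of cytosines called methylated in the CA, CC, CG and CT contexts and in lambda DNA, an unmethylated spike-in that reports how much unmethylated cytosine escapes conversion. Shares are printed here as percentages, and differences as percentage points. CC is the context with the least methylation in neurons, so the value of CC in the same library was also used as a floor: "CA above CC" is CA minus CC. Labelled coverage was 0.01 to 0.03 genome equivalents, but how many cytosines were read in a given library is unknown, and values carry no counting interval. The values are sums over the whole genome of a tissue. They hold no gene, so neither the Dnmt3a locus nor marker genes of hippocampus could be read, and fewer neurons cannot be told apart from less methylation per neuron.

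The comparison of genotypes asks how methylation in hippocampus differs when 1 Dnmt3a copy is lost. CA and CT methylation was far lower in hKO than in WT hippocampus. CG and CC were lower by smaller shares of their WT levels, 2.94% and 6.43%, and the spike-in values overlapped. CA methylation was 0.871% in hKO male 046-2 and 0.948% in hKO female 047-1. In WT hippocampus it was 1.58% in 046-1, 1.51% in 047-2, 1.43% in 306-1 and 1.51% in 602-2. Both hKO animals lay below all 4 WT animals, and the highest hKO value was 0.486 points under the lowest WT value. The hKO mean was 0.910% ± 0.0542 (SD, n = 2), beside a WT mean of 1.51% ± 0.0595 (SD, n = 4), a difference of -0.597 points (SE 0.0485), which is 10.0 times the SD among WT animals. By exact permutation, two-sided, p was 0.0667 (0.0857 after Benjamini-Hochberg adjustment over 9 hippocampus measures), the smallest value that 15 arrangements of 2 against 4 animals allow. No comparison of genotypes in this tissue can therefore pass a threshold of 0.05, and the groups are described by their values and spread.

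CT, the second non-CG context, followed the same order. It was 0.433% in 046-2 and 0.450% in 047-1, against 0.650% in 046-1, 0.619% in 047-2, 0.596% in 306-1 and 0.603% in 602-2. The hKO values again lay below every WT value. The means were 0.441% ± 0.0120 (SD, n = 2) and 0.617% ± 0.0240 (SD, n = 4), and they differed by -0.175 points (SE 0.0147, exact permutation p = 0.0667, adjusted 0.0857). The CT difference was 29.4% of the CA difference in size.

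CG methylation was 67.7% in 046-2 and 68.1% in 047-1. In WT hippocampus it was 70.3% in 046-1, 70.03% in 047-2, 69.6% in 306-1 and 69.9% in 602-2. The groups did not overlap, with 1.49 points between the highest hKO and the lowest WT animal. The WT values were tight, with an SD of 0.269 points, and the difference of -2.06 points (SE 0.252) was 7.64 times that SD (exact permutation p = 0.0667, adjusted 0.0857). In points the CG difference exceeded the CA difference. As a share of the WT level it was far smaller: hKO hippocampus held 97.1% of the WT level in CG and 60.4% in CA.

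**Figure D1:**
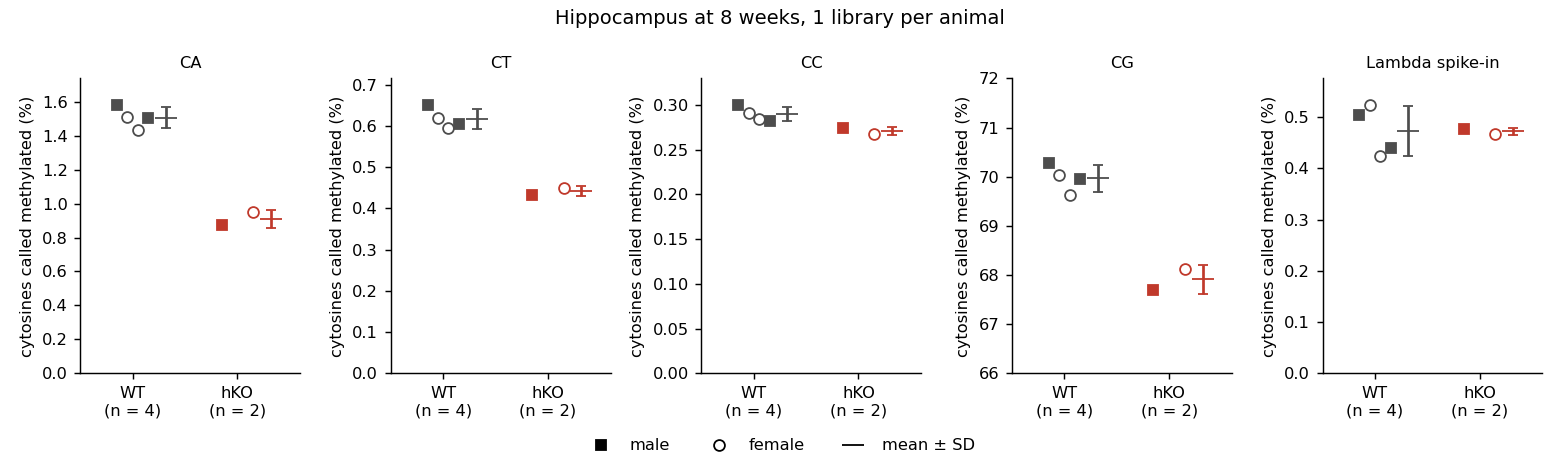
Percentage of cytosines called methylated in each hippocampus library, by context, in WT (grey, n = 4) and hKO (red, n = 2) mice; squares are males, open circles females, and the bar beside each group is the mean ± SD. CA, CT, CC and lambda axes start at 0 and the CG axis starts at 66%. hKO points lie below all WT points in CA, CT, CC and CG, while in lambda the 2 hKO points (0.467% and 0.477%) lie inside the WT range (0.425% to 0.523%).

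CC and lambda give the floor under these values. CC was 0.274% in 046-2 and 0.268% in 047-1, against 0.299% in 046-1, 0.291% in 047-2, 0.285% in 306-1 and 0.282% in 602-2. The hKO values were the lowest of the 6, but the gap to the nearest WT animal was only 0.00844 points. The means differed by -0.0186 points (SE 0.00493, exact permutation p = 0.0667, adjusted 0.0857), which is 3.12% of the CA difference and 10.6% of the CT difference. As a share of the WT level, hKO CC stood at 93.6%, a larger relative drop than in CG (97.1%). The floor was thus itself lower in hKO. Lambda was 0.477% in 046-2 and 0.467% in 047-1, and ranged from 0.425% in 306-1 to 0.523% in 047-2 among WT animals. The lambda means of 0.472% and 0.473% differed by less than the spread among WT animals (exact permutation p = 1, adjusted 1). Within the pairs of shared code prefix lambda was lower in the hKO animal, with differences of -0.0272 points for 046 and -0.0565 points for 047.

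Lambda exceeded CC in all 6 hippocampus libraries, by 1.49 to 1.80 times in WT and 1.74 times in both hKO libraries, so subtracting lambda takes away more than the whole CC value. CT minus lambda was -0.0445 points in 046-2 and -0.0168 points in 047-1, that is, below the spike-in in both hKO animals. In WT hippocampus CT lay 0.0958 to 0.171 points above lambda. CA stayed above lambda in every animal, by 0.394 and 0.481 points in hKO and by 0.986 to 1.07 points in WT.

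Above the CC floor, hKO hippocampus held 52.5% of the WT level in CA and 52.1% in CT. CA above CC was 0.598 points in 046-2 and 0.680 in 047-1, against 1.28 in 046-1, 1.22 in 047-2, 1.15 in 306-1 and 1.22 in 602-2. The groups were again separate, and the means were 0.639 ± 0.0585 (SD, n = 2) and 1.22 ± 0.0535 points (SD, n = 4). The difference was -0.579 points (SE 0.0493, exact permutation p = 0.0667, adjusted 0.0857). The retained share ran from 49.1% without hKO animal 047-1 to 55.9% without hKO animal 046-2, so the choice of hKO animal moved it more than that of any WT animal.

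CT above CC was 0.159 points in 046-2 and 0.182 in 047-1, and 0.3503, 0.328, 0.311 and 0.321 points in WT animals 046-1, 047-2, 306-1 and 602-2. The hKO mean of 0.171 points was 52.1% of the WT mean of 0.328 (difference -0.157, SE 0.0143, exact permutation p = 0.0667, adjusted 0.0857). The retained shares of CA and CT above CC thus stood 0.362 percentage points apart. Without the floor the shares were 60.4% for CA and 71.6% for CT. CC made up 28.2% and 31.4% of CA in the hKO libraries and 18.8% to 19.8% in WT, and 59.5% and 63.2% of CT in hKO and 46.1% to 47.8% in WT.

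The ratio of CT to CA shows how far the comparison of contexts rests on that floor. As deposited, CT was 0.497 of CA in 046-2 and 0.475 in 047-1. In WT animals the ratio was 0.411 in 046-1, 0.410 in 047-2, 0.415 in 306-1 and 0.401 in 602-2. The hKO ratios were higher than all WT ratios, with a difference of 0.0763 (SE 0.0116, exact permutation p = 0.0667, adjusted 0.0857). With CC subtracted from both contexts the ratio was 0.266 in 046-2 and 0.268 in 047-1, and both lay inside the WT range, which ran from 0.262 in 602-2 to 0.274 in 046-1.

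The floor-subtracted mean was 0.267 ± 0.00108 in hKO (SD, n = 2), and the WT mean was 0.269 ± 0.00473 (SD, n = 4). They differed by -0.00187 (SE 0.00249, exact permutation p = 0.667, adjusted 0.750). The 8 differences between single hKO and WT animals ran from -0.00733 to 0.00542, where the difference as deposited was 0.0593 or more in each of the 8. With lambda in place of CC the ratio was negative in both hKO libraries, because CT minus lambda is below 0 there. The difference was then -0.213 (exact permutation p = 0.0667). The ratio difference was thus above 0 only as deposited. A negative ratio is no share of CA, so the value with lambda is not read as a level of CT. With 2 hKO animals the overlap above CC does not show that the ratios are equal.

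**Figure D2:**
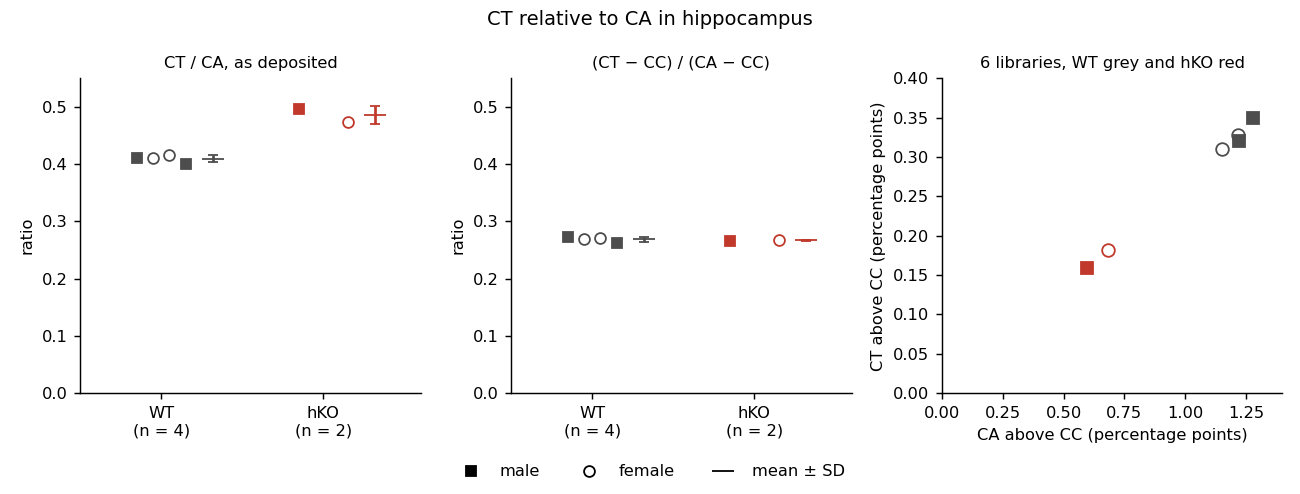
CT relative to CA in the 6 hippocampus libraries: the ratio as deposited (left), the ratio after CC of the same library is subtracted from both (middle), each with the mean ± SD, and CT above CC against CA above CC in percentage points (right); WT is grey, hKO red, squares are males and open circles females. The left ratios separate (0.475 and 0.497 in hKO, 0.401 to 0.415 in WT), whereas the middle ones overlap, from 0.262 to 0.274 over all 6 animals.

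Sex was balanced within each genotype, with 1 male and 1 female hKO and 2 of each among WT. The male hKO had the lowest CA and the lowest CG of the 6 animals. Against WT of the same sex, CA differed by -0.671 points in males (0.871% and 1.54%) and by -0.524 points in females (0.948% and 1.47%). CG differed by -2.41 points in males and -1.70 points in females. Each sex has 1 hKO animal, and the difference between the sexes was not tested. Among the 4 mice whose codes share a prefix, hKO 046-2 stood -0.708 points from WT 046-1 in CA, and hKO 047-1 stood -0.561 points from WT 047-2. Above CC, 046-2 held 46.7% of the CA level of 046-1, and 047-1 held 55.8% of that of 047-2.

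The same 6 mice also gave cortex, striatum, cerebellum and liver, so the hippocampus could be placed within each animal. Cortex had 16 libraries and the other 3 tissues 6 each. Libraries of 1 animal with equal values were counted once, cortex libraries were averaged per animal, and the CA value of the 602-2 striatum, a copy of its lambda value, was left out. In each of the 5 animals with all 5 CA values, CA ran from cortex, the highest, through striatum, hippocampus and cerebellum to liver. In animal 602-2, without striatum, the other 4 tissues kept that order. The hippocampus thus ranked 3 of 5 in 2 hKO and 3 WT mice.

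In hippocampus CA lay below cortex in 6 of 6 animals, with differences from -1.03 to -0.304 points (mean -0.753 ± 0.275, SD, n = 6; exact sign permutation test p = 0.03125, adjusted over 4 tissues 0.0417). It lay above cerebellum in 6 of 6, by 0.152 to 0.434 points (mean 0.337, exact p = 0.03125, adjusted 0.0417). It lay above liver in 6 of 6, by 0.586 to 1.18 points (mean 0.953, with the same exact p and adjusted value). Against striatum it was lower in 5 of 5, with differences from -0.687 to -0.284 points (mean -0.496), where the smallest exact p for 5 pairs, 0.0625, was reached (adjusted 0.0625). With the CC floor removed, WT hippocampus held 59.1% of the CA level of cortex, 67.7% of that of striatum and 145% of that of cerebellum. In hKO mice these shares were 61.4%, 67.5% and 148%. In both genotypes the step from hippocampus to cortex was larger than the step from cerebellum to hippocampus.

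For CT the hippocampus took the same place. CT above CC was lower than in cortex and striatum and higher than in cerebellum and liver in 6 of 6 animals each, with mean differences of -0.172, -0.129, 0.0912 and 0.238 points (exact p = 0.03125 for each, adjusted 0.03125). CC itself separated the tissues less. It was lower in hippocampus than in cortex in 6 of 6 animals and than in striatum in 5 of 6, with 602-2 the exception. It was higher than in cerebellum in 5 of 6 and than in liver in 5 of 6. None of the 4 CC comparisons passed after adjustment (exact permutation, adjusted p = 0.0938 each).

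CG did not follow the order of CA. Hippocampus had the lowest CG of the 4 brain tissues in 6 of 6 animals, although its CA exceeded that of cerebellum in all of them. Hippocampus minus cerebellum ran from -3.29 to -0.262 points in CG (mean -1.56), hippocampus minus striatum from -4.27 to -1.25 points (mean -1.93) and hippocampus minus cortex from -4.46 to -0.430 points (mean -2.78). Each exact sign permutation p was 0.03125 (adjusted 0.0417). The -4.27 and the -3.29 both came from 602-2, the animal whose striatum CA repeated lambda. Its striatum CG was 74.2%, against 71.3% to 71.6% in the other WT striata. Its cerebellum CG was 73.2%, against 70.9% to 71.9% in the other WT cerebella. Without 602-2 the mean step to striatum was -1.46 points and that to cerebellum -1.22 points. Against liver CG was higher in 5 of 6 animals, hKO 046-2 being the exception (from -0.293 to 5.27 points, exact p = 0.0625, adjusted 0.0625).

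**Figure D3:**
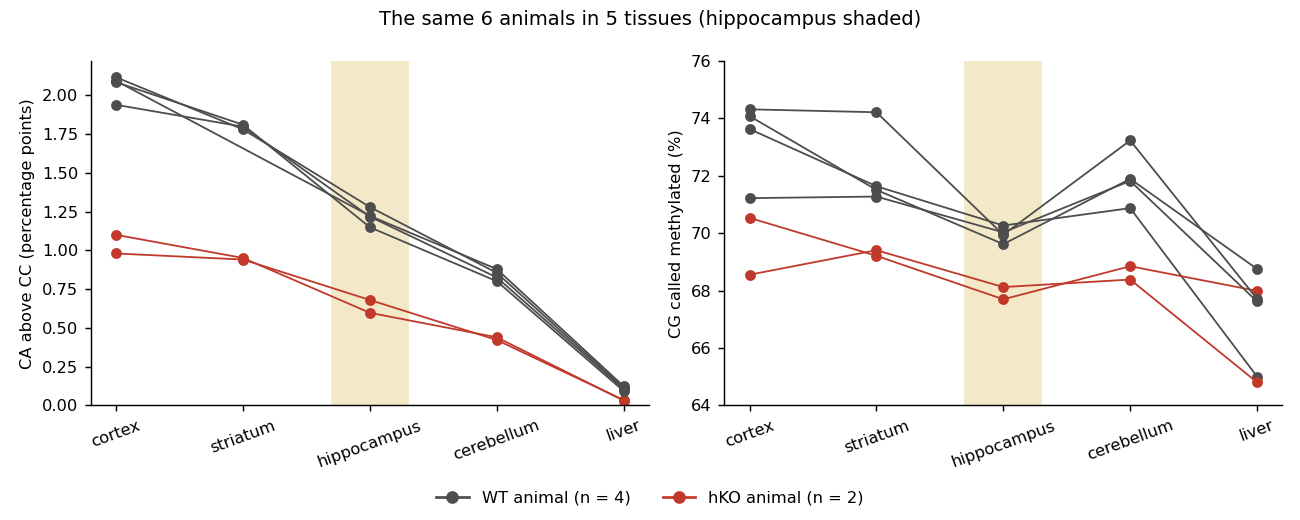
CA above CC in percentage points (left) and percentage of CG called methylated (right) in the 4 WT (grey) and 2 hKO (red) mice, 1 line per animal, over cortex, striatum, hippocampus (shaded), cerebellum and liver; the CG axis starts at 64%. Left, hippocampus sits between striatum and cerebellum in every animal with values for both; right, it is the lowest of the 4 brain tissues in every animal. 1 WT animal has no striatum CA value and its line runs straight from cortex to hippocampus.

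The size of the CG step to cortex depended on which cortex libraries were used. The counted cortex libraries of these mice fell into 6 with CC under 0.35% (CC from 0.272% to 0.332%, CG from 68.0% to 72.5%) and 7 with CC of at least 0.371% (CG from 71.5% to 76.2%). The lambda value was missing or 0 in 6 of those 7 and in none of the other 6. Animals 046-1, 046-2, 306-1 and 602-2 had libraries of both kinds, and animals 047-1 and 047-2 of the first kind only. The 6 hippocampus libraries had CC from 0.268% to 0.299%. No label names a reason for the split of the cortex libraries, and its part in the difference between tissues was not tested beyond the choice of libraries. Against the cortex libraries with CC under 0.35%, a choice made after the values were seen, the CG step shrank from -2.78 to -1.001 points. In animal 046-1 it was then -0.000309, with hippocampus and cortex both at 70.3%, and it ran to -2.54 in 602-2. Hippocampus remained lower in 6 of 6 (exact p = 0.03125). With lambda subtracted, which leaves out the 6 cortex libraries without a usable lambda value, the CG step was -1.27 points. The CA step above CC moved less, from -0.695 to -0.588 points, and WT hippocampus then held 63.1% of the cortex level.

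**Figure D4:**
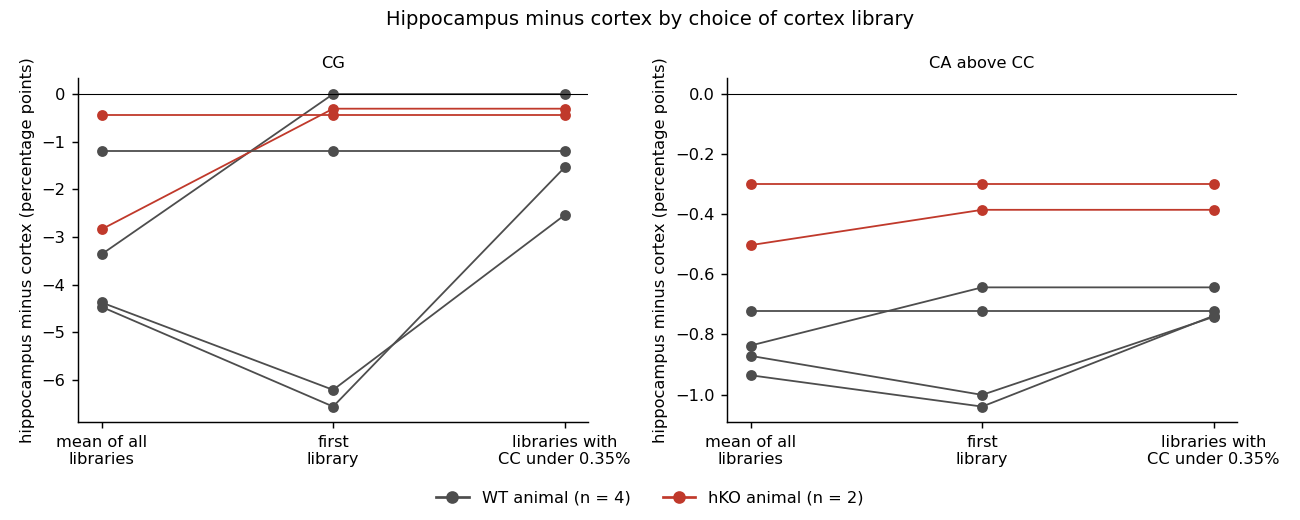
Hippocampus minus cortex in CG (left) and in CA above CC (right), in percentage points, for each WT (grey, n = 4) and hKO (red, n = 2) mouse, with cortex taken as the mean of all its libraries, as its first library, or as its libraries with CC under 0.35%; the horizontal line marks 0. The CG step moves by several points with the choice in the animals that have libraries of both kinds (for 306-1 it is -4.46, -6.56 and -1.54), whereas every CA step stays below 0.

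Whether genotype matters more in hippocampus than elsewhere was asked within animals. In points, the hKO difference in CA above CC was 0.440 points smaller in size in hippocampus than in cortex, 0.273 smaller than in striatum and 0.169 larger than in cerebellum. Each was separate by genotype, and each reached the smallest p its design allows (exact permutation p = 0.0667, 0.1 and 0.0667, adjusted 0.0889, 0.1 and 0.0889). The WT level of CA above CC ran in the same order, at 2.06 points in cortex, 1.80 in striatum, 1.22 in hippocampus and 0.841 in cerebellum.

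On a log2 scale, which compares proportions, the genotype difference in CA above CC in hippocampus stood 0.0541 from that in cortex, -0.00485 from that in striatum and 0.0312 from that in cerebellum (exact permutation p = 0.733, 0.9 and 0.8, adjusted 0.9 each). In each case the 2 hKO values lay on either side of the WT mean. The log2 ratio of hippocampus to striatum, for example, ran from -0.671 to -0.468 in hKO and from -0.656 to -0.476 in WT mice. The retained shares of CA above CC were 52.5% in hippocampus, 50.5% in cortex, 52.7% in striatum and 51.3% in cerebellum. Those of CT above CC were 52.1%, 49.3%, 52.0% and 50.8%. With the cortex libraries of CC under 0.35%, the cortex share was 50.9% for CA above CC and 50.9% for CT above CC. With 2 hKO animals these tests cannot show that the shares are equal.

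As deposited, without the floor, the retained share of CT was 71.6% in hippocampus, 64.2% in cortex, 68.5% in striatum and 79.0% in cerebellum, an order that runs opposite to the WT level of CT in these tissues. Against liver no share is compared, because CA above CC was only 0.0332 points in hKO and 0.109 points in WT liver. In CG the genotype difference of hippocampus, at -2.06 points, was the smallest in size of the 4 brain tissues, beside -3.77 in cortex, -2.85 in striatum and -3.34 in cerebellum. The differences between tissues were within the spread of animals (exact permutation p = 0.2, 0.667 and 0.267, adjusted 0.533, 0.667 and 0.533). The gap to cortex, 1.71 points, was 0.948 with the cortex libraries of CC under 0.35% (cortex CG of 68.3% in hKO and 71.3% in WT) and 3.12 with the first cortex library. Leaving out 1 animal moved it from 0.509 (without 047-1) to 2.92 (without 046-2). The gap to striatum, 0.795 points, was 0.103 without 602-2, and that to cerebellum, 1.28 points, was 0.837 without 047-1 and 0.851 without 602-2. Each gap stayed above 0 in these settings, while its size moved by over 1.5 times.

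**Figure D5:**
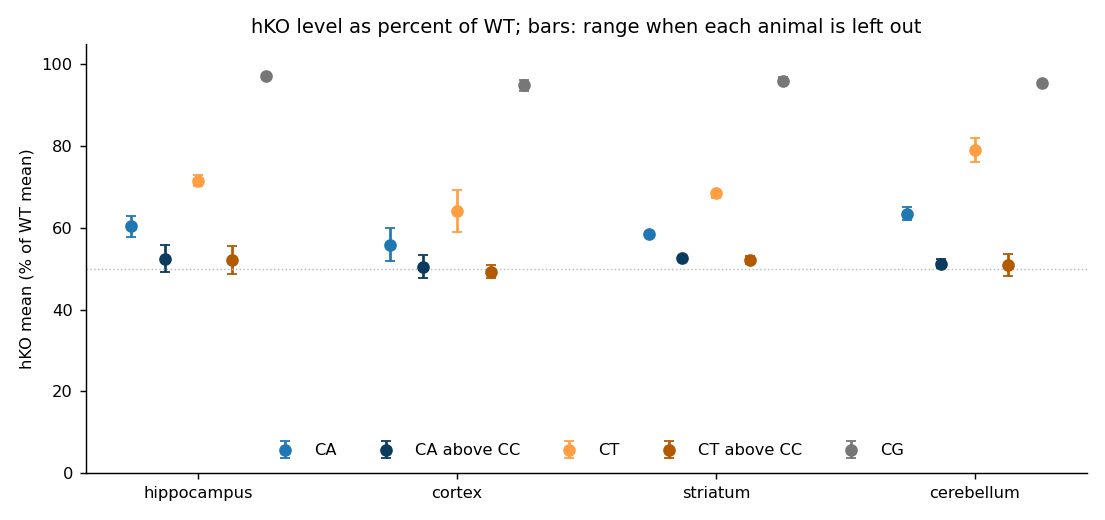
hKO mean as a percentage of the WT mean in hippocampus, cortex, striatum and cerebellum of the same mice, for CA and CT as deposited, CA and CT above CC, and CG; bars span the values obtained when each animal in turn is left out, and the dotted line marks 50%. In hippocampus CA above CC (52.5%) and CT above CC (52.1%) lie together, while CA (60.4%) and CT (71.6%) as deposited stand apart and CG (97.1%) is near the top.

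Beside cerebellum and cortex of the series, with cortex averaged per animal and the cortices of the same mice among those of 8 weeks, the values place the hippocampus as follows, with no test. Both hKO hippocampi (0.871% and 0.948% CA) lay below the cerebella of the same 4 WT mice, which ran from 1.07% to 1.15%. WT hippocampus, at 1.43% to 1.58%, lay above all 5 WT cortices of 2-week mice (1.26% to 1.39%) and below all 11 WT cortices of 8-week mice (2.20% to 2.72%). The 5 WT cortices of 4-week mice ran from 1.24% to 2.198%, with a mean of 1.96%. Their lowest value lay below the 2-week range, while their mean lay above all WT hippocampus values. That range therefore does not place the WT hippocampus relative to 4-week cortex. hKO hippocampus in turn lay above the 3 hKO cortices of 2-week mice (0.778% to 0.837%) and below the 7 hKO cortices of 8-week mice (1.22% to 1.45%). The 3 hKO cortices of 4-week mice, at 1.16% to 2.18% (mean 1.54%), also lay above hKO hippocampus. Their highest value exceeded all hKO cortices of 8-week mice and also the 4-week WT mean of 1.96%. The lowest 4-week WT value, 1.24%, lay below the 4-week hKO mean. The genotypes thus overlapped in 4-week cortex, and the reason was not tested.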

How the data were processed

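Values were read from the shallow-library table, which the authors deposited as a fraction of methylated cytosines per library and context. Per the submitters' processing notes BS-Seeker2, bedtools and the mm9 genome were used; versions and filters are not given in the sources used here. Fractions were multiplied by 100. The table lists no counts or coverage, and 98 rows of cultured neurons were not used. Groups came from the genotype, tissue and age labels, and the measures were chosen with earlier results of these data known. Libraries of an animal with values equal within 1e-09 were counted once. Lambda cells of exactly 0 were treated as missing. Genotypes were compared by exact two-sided permutation of the difference in means (share of arrangements at least as far from 0), tissues by exact sign permutation within animals, with Benjamini-Hochberg adjustment over the 9 genotype measures or the 4 tissues, in Python 3.11.15 with numpy 2.4.6 and pandas 2.3.3. Simulated data covered the genotype test only at 4 against 4 animals, not at the 2 against 4 used here. They covered the sign test only with a large shift. Alternatives were lambda subtraction, a log2 scale, medians, each animal left out, permutation within sex or title prefix, and other cortex libraries. No rule for named genes applied. The gene and enhancer table holds no hippocampus and was not used here.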

Additional observations from a re-analysis of the deposited data

How the results depend on the processing

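The exact tests of genotype cannot pass 0.05 at 2 against 4 animals, so their side of the threshold says nothing about stability, and only direction and size are compared. Depth is unknown. The hKO group is 2 mice, the tissue label was not checked by marker genes, and the cell makeup of the tissue was not measured.

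Under alternatives other than leaving out an animal, 38 genotype values kept their direction and 3 did not. Those were lambda on a log2 scale (0.00300), lambda by medians (0.000350) and the CT to CA ratio with lambda subtracted (-0.213). Many of the kept directions were fixed in advance. Permutation within sex leaves each difference unchanged because sex is balanced. The log2 scale, medians and prefix pairs cannot turn a measure whose groups did not overlap. Without 1 animal, 51 values kept their direction and 3 changed it, each of them for lambda, which ran from -0.0168 to 0.0159. Only lambda and the ratio above CC, whose groups overlapped, could have changed direction when an animal was left out. The count of kept values is thus no measure of stability for the other measures. Restricted to animals paired by the shared title prefix as a replicate block (046 and 047), the difference was -0.635 points in CA, -2.24 points in CG, -0.0418 points in lambda and -0.00434 in the ratio above CC. The lambda and ratio values moved most. Each had an exact permutation p of 0.5, the smallest that 2 pairs allow. The labels do not say that the prefix marks a litter. With genotype permuted within sex, the exact p for CA was 0.111.

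With lambda subtracted, CC of hippocampus minus cortex was 0.00550 and minus cerebellum -0.00403, each opposite in sign to the difference as deposited, CC minus striatum was -0.0323 and minus liver 0.0768, and CG minus cortex was -1.27. The CT to CA ratio of hippocampus minus cortex was then -0.0794, minus striatum -0.107 and minus cerebellum 0.122, also opposite in sign, and minus liver -1.29, no longer past the threshold. CT lay below lambda in hippocampus and cerebellum of both hKO animals and in cerebellum of WT 602-2. In liver both CA and CT lay below lambda in every animal. These ratios thus hold negative values, and their signs are not read as tissue differences. On a log2 scale the genotype difference in CA above CC in hippocampus minus that in striatum was -0.00485, minus that in cerebellum 0.0312 and minus that in liver 0.778, and that of CT above CC minus cerebellum was 0.0347, all opposite in sign to the difference in points. Without 1 animal the CG value against liver ran from -2.99 to 0.626.

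Leaving out 1 of 6 animals leaves 5, for which no exact p is under 0.0625, so every tissue difference that had passed lost the threshold by construction. None could change direction either, because each had the same sign in 6 of 6 animals, so only the sizes are informative. Hippocampus minus cortex then ran from -0.842 to -0.697 in CA, -0.260 to -0.211 in CT, -3.25 to -2.44 in CG, -0.774 to -0.646 in CA above CC, -0.191 to -0.161 in CT above CC and 0.0415 to 0.0482 in the CT to CA ratio. Against striatum the ranges were -0.160 to -0.137 in CT, -2.07 to -1.46 in CG and -0.142 to -0.119 in CT above CC. Against cerebellum they were 0.318 to 0.374 in CA, 0.0993 to 0.122 in CT, -1.82 to -1.22 in CG, 0.2999 to 0.353 in CA above CC, 0.0862 to 0.101 in CT above CC and -0.0443 to -0.0344 in the ratio. Against liver they were 0.908 to 1.03 in CA, 0.238 to 0.272 in CT, 0.896 to 1.02 in CA above CC, 0.226 to 0.258 in CT above CC and -0.448 to -0.427 in the ratio.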
